A study of Danio rerio with 24 samples.

Results

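The gene ucp1 encodes uncoupling protein 1, a member of the mitochondrial carrier family, and was followed over the first days of digestive organ formation in zebrafish. It was represented by 1 probe set (Entrez gene 83908) of 15502 tested, and was 1 of 8793 genes with a symbol. The gene was selected on its steep measured rise in the GFP+ cells of these same arrays, so its values in GFP+ cells and its differences between the cell fractions are given as a description with no test. The GFP- arrays did not enter that rise, and their change with age was tested. Of the probe sets that rose by at least 3 array standard deviations in GFP+ cells, 46.9% also did so in GFP- cells, so choosing a gene on its GFP+ rise favours a GFP- rise, and the tests of it are not independent of the choice in that sense.

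All embryos were homozygous for Tg(XlEef1a1:GFP)s854, a line in which a Xenopus laevis Eef1a1 promoter fragment drives GFP, which labels the digestive organs that endoderm gives rise to. All were kept in phenylthiourea from 1 day post fertilization (dpf), which blocks pigment. They were dissociated with trypsin, proteinase K and collagenase at 2, 3, 4 or 6 dpf and sorted by fluorescence into GFP+ and GFP- cells, called gates here. Each of the 8 groups of gate and age held 3 Affymetrix arrays, 24 in all, each of RNA amplified to cDNA, and the labels do not give the clutch of a replicate. The spread behind each p-value is that between these samples, and it may be technical.

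Uncoupling proteins sit in the inner mitochondrial membrane. In mammals UCP1 is the protein of brown fat that lets protons return to the matrix without making ATP, so that the energy of respiration is released as heat. Fatty acids activate it and purine nucleotides inhibit it. Fish carry an orthologue, known from carp mainly as a liver transcript, and fish have no brown fat.

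Values are scores. On each array the median of all probe sets is 0 and their standard deviation (SD) is 1, so a score of 1 lies 1 array SD above the array's median. A score is relative to the other probe sets of its array, and scores of different probe sets are not compared as levels. In sorted cells, fewer cells of a type and less RNA per cell cannot be told apart.

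In GFP+ cells ucp1 went from below the array median at 2 dpf to far above it at 4 and 6 dpf. At 2 dpf the 3 arrays scored -0.58, -0.73 and -0.59, and at 3 dpf they scored 0.65, 0.74 and 0.19. The 2 dpf scores stood at percentiles 9.15, 4.87 and 14.5 of all probe sets, near the low end. At 4 dpf the scores were 2.83, 2.64 and 2.95, and at 6 dpf they were 3.43, 3.35 and 3.57. No array of one age overlapped an array of another age. Group means by age were -0.63 ± 0.09 (SD, n = 3), 0.53 ± 0.29, 2.81 ± 0.15 and 3.45 ± 0.11. The difference of 4.08 between 6 and 2 dpf ranked 11th of all probe sets, and the step from 3 to 4 dpf made up 55.9% of it. Just above ucp1 in that order stood cela1.5, a pancreatic elastase, at 4.08, and just below it cpa5, a carboxypeptidase, at 4.04.

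**Figure D1:**
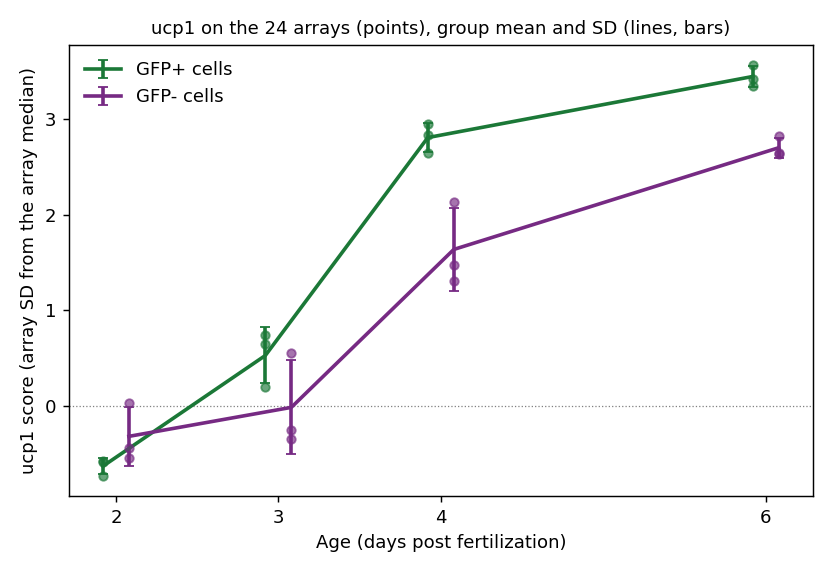
Score of ucp1 (vertical axis, array SD from the array median) against age in days post fertilization, for GFP+ and GFP- cells. Points are the 24 arrays, lines join the group means and bars are the SD of 3 arrays. At 6 dpf the GFP+ arrays sit between 3.35 and 3.57, above the GFP- arrays between 2.64 and 2.82.

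In GFP- cells ucp1 rose as well. At 2 dpf the arrays scored -0.55, -0.45 and 0.03, and at 3 dpf they scored 0.55, -0.35 and -0.25, so that these 2 ages overlapped. At 4 dpf the scores were 1.47, 1.31 and 2.13, and at 6 dpf they were 2.82, 2.64 and 2.64. All 6 GFP- arrays of 4 and 6 dpf lay above all 6 of 2 and 3 dpf.

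The GFP- rise was tested with limma, a linear model fitted to every probe set with 1 spread per probe set shared by the 8 groups. A probe set is called where its p, adjusted over all probe sets by the Benjamini-Hochberg method, is under 0.05. Between 2 and 6 dpf the GFP- score rose by 3.02 ± 0.22 (standard error, SE; adjusted p = 1.55e-08), the 30th largest rise. In that comparison 8.77% of all probe sets were called higher and 9.64% lower. An exact permutation test of ucp1 alone over the 12 GFP- arrays asked for any difference among the 4 ages, without direction. This permutation test gave p = 0.0003247 over 369600 arrangements, where the smallest possible p was 6.494e-05.

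Most of the GFP- rise fell between 3 and 4 dpf. The difference between 3 and 2 dpf was 0.30 ± 0.22 and was not called (limma adjusted p = 0.692), while 3.2% of all probe sets were called higher there. Between 4 and 3 dpf ucp1 rose by 1.65 ± 0.22 (limma adjusted p = 0.00052), against 1.5% of all probe sets called higher, and this was the 13th largest rise of the step. With only the 6 arrays of those ages in the model, the adjusted p of this step was 0.113. Between 6 and 4 dpf it rose by 1.06 ± 0.22 (limma adjusted p = 0.0353), with 0.361% of all probe sets called higher. That last call was lost without any one of 5 of the 6 arrays involved, with differences from 0.90 to 1.096 and limma adjusted p from 0.059 to 0.171; without GFP- 4 dpf replicate 3 the difference was 1.31 and the call stayed.

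The gates differed by age. At 2 dpf the GFP+ mean lay 0.31 below the GFP- mean, and the arrays did not overlap, but the gap was smaller than the sum of the groups' SDs (0.39). At 3 dpf the GFP+ mean was 0.54 higher and the arrays overlapped. The GFP+ mean was 1.17 higher at 4 dpf and 0.75 higher at 6 dpf, with no overlap at either age. Taken by replicate number, GFP+ minus GFP- was -0.04, -0.29 and -0.62 at 2 dpf and 0.60, 0.71 and 0.92 at 6 dpf. The 6 dpf gap depended on the scaling: it was 0.49 after quantile normalization. That scaling also moved the median difference of all probe sets at 6 dpf, from 0.11 to 0.05.

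Ordered by group mean, ucp1 was lowest in GFP+ cells at 2 dpf, then in GFP- cells at 2 dpf, GFP- cells at 3 dpf and GFP+ cells at 3 dpf. GFP- cells at 3 dpf overlapped with the groups on either side. GFP- cells at 4 dpf stood next, at a mean of 1.64 ± 0.44. GFP- cells at 6 dpf (2.70 ± 0.11) and GFP+ cells at 4 dpf (2.81 ± 0.15) overlapped and differed by 0.11, less than the sum of their SDs (0.26). GFP+ cells at 6 dpf were highest, 0.64 above GFP+ cells at 4 dpf.

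Rises as large as that of ucp1 were few. From 2 to 6 dpf, 32 probe sets rose by at least 3 array SD in GFP+ cells and 30 in GFP- cells. Of these, 15 did so in both gates, which was 46.9% of the GFP+ set and 50% of the GFP- set. Named genes among the 15 numbered 12: ucp1 and amy2a, cel.1, cela1.5, cpb1, ctrb.1, ctrb.2, ctrl, ela2, ela2l, ela3l and sycn.2. Those other 11 encode digestive enzymes of the pancreas or, for sycn.2, a protein of its secretory granules. The threshold was set on the measured rise, so this is a description.

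None of 4 related carriers, ucp2, ucp3, slc25a14 and slc25a27, was called between 2 and 6 dpf in either gate. Of all probe sets, 9.17% were called higher and 13% lower in GFP+ cells, and 8.77% and 9.64% in GFP- cells. Most probe sets were thus not called either, and the lack of a call in 4 genes does not set ucp1 apart from them. The gene ucp2, an uncoupling protein found in many tissues, had a mean score of 2.00 ± 0.41 in GFP+ cells at 2 dpf and 2.03 ± 0.26 at 6 dpf. Its change was 0.03 ± 0.20 in GFP+ cells (limma adjusted p = 0.925) and 0.40 ± 0.20 in GFP- cells (limma adjusted p = 0.204). At 2 dpf ucp2 was higher in GFP+ than in GFP- cells by 0.67 ± 0.20 (limma adjusted p = 0.0273). Its gap at 6 dpf was 0.30 ± 0.20 and was not called (limma adjusted p = 0.246).

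The score of ucp3, known in mammals from skeletal muscle, lay below the array median in all 8 group means. It differed between 6 and 2 dpf by 0.04 ± 0.11 in GFP+ cells (limma adjusted p = 0.84) and by 0.25 ± 0.11 in GFP- cells (limma adjusted p = 0.143). Of the more distant relatives, slc25a14 differed by -0.05 ± 0.14 in GFP+ cells (limma adjusted p = 0.853). The gene slc25a27 was higher in GFP+ than GFP- cells both at 2 dpf, by 0.81 ± 0.24 (limma adjusted p = 0.0213), and at 6 dpf, by 0.82 ± 0.24 (limma adjusted p = 0.0102). Its change from 2 to 6 dpf in GFP+ cells was -0.17 ± 0.24 and was not called (limma adjusted p = 0.666). Between these ages its score was not level. The GFP+ means at 2, 3, 4 and 6 dpf were 0.45 ± 0.26 (SD), 0.80 ± 0.39, 1.19 ± 0.50 and 0.28 ± 0.33. No test of the single steps is given for this gene.

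**Figure D2:**
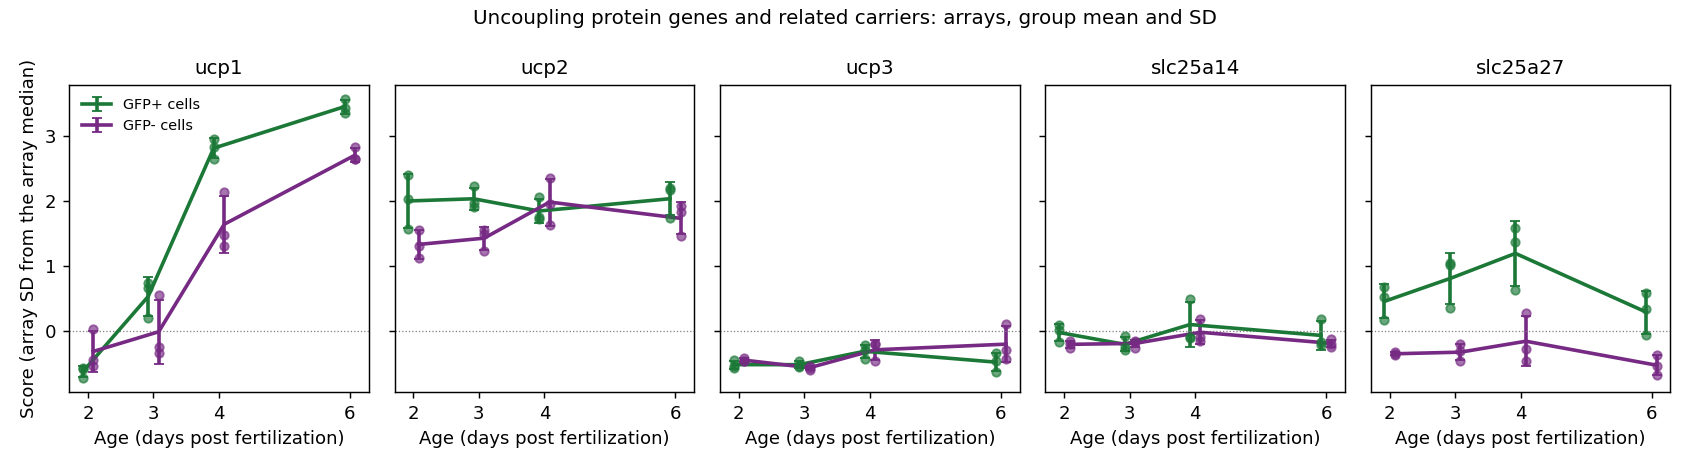
Scores (vertical axis, array SD from the array median) of ucp1, ucp2, ucp3, slc25a14 and slc25a27 against age in days post fertilization, for GFP+ and GFP- cells. Points are arrays, lines group means and bars the SD of 3 arrays; heights are not comparable between panels, since each gene has its own probe set. The ucp1 panel climbs from a GFP+ mean of -0.63 to 3.45, while ucp2 in GFP+ cells has means of 2.00 and 2.03 at 2 and 6 dpf.

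The genes whose scores followed ucp1 most closely over the 24 arrays were mostly those of pancreatic enzymes. Likeness was measured as Pearson's r of 1 probe set per gene with ucp1, over 8175 genes with a proper symbol. These arrays share ages, gates and replicates, so r is given as a description. The median r was 0.04, and 19 genes exceeded 0.9. The closest was ctrb.2, a chymotrypsinogen gene, at 0.966, followed by the amylase gene amy2a at 0.948 and itih3b.1, an inter-alpha-trypsin inhibitor heavy chain gene, at 0.945. The next were ela3l, ctrl, ela2, sycn.2, pla2g1b, ubl3a, ela2l, cela1.5 and cell, from 0.939 down to 0.919. Of the 12, 6 were on the exocrine pancreas marker list and 0 on the hepatocyte list. That 0 depends on which genes were listed. The measured genes of the hepatocyte list include another inter-alpha-trypsin inhibitor chain gene, itih2, but not itih3b.1.

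The order of likeness changed with the gate. Over the 12 GFP+ arrays the closest were agmo, an alkylglycerol monooxygenase gene, at 0.994, then deptor, an inhibitor of mTOR signalling, at 0.991, and a2m2f, of the alpha-2-macroglobulin family, at 0.991. They were followed by ctrb.2 at 0.987 and the inter-alpha-trypsin inhibitor chains itih3a.1 and itih3b.1, both at 0.986. Only ctrb.2 and itih3b.1, 2 of these 6, were among the 12 of all arrays. The hepatocyte list names itih2 and itih3a, of the same inhibitor family. The symbol itih3a was not among its measured genes, and itih3a.1, itih3b.1 and a2m2f were not counted in that list. Over the 12 GFP- arrays the closest were cabp5b, a calcium-binding protein gene, at 0.965 and ela3l at 0.961, and 5 of the closest 12 were shared with those of all arrays.

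**Figure D3:**
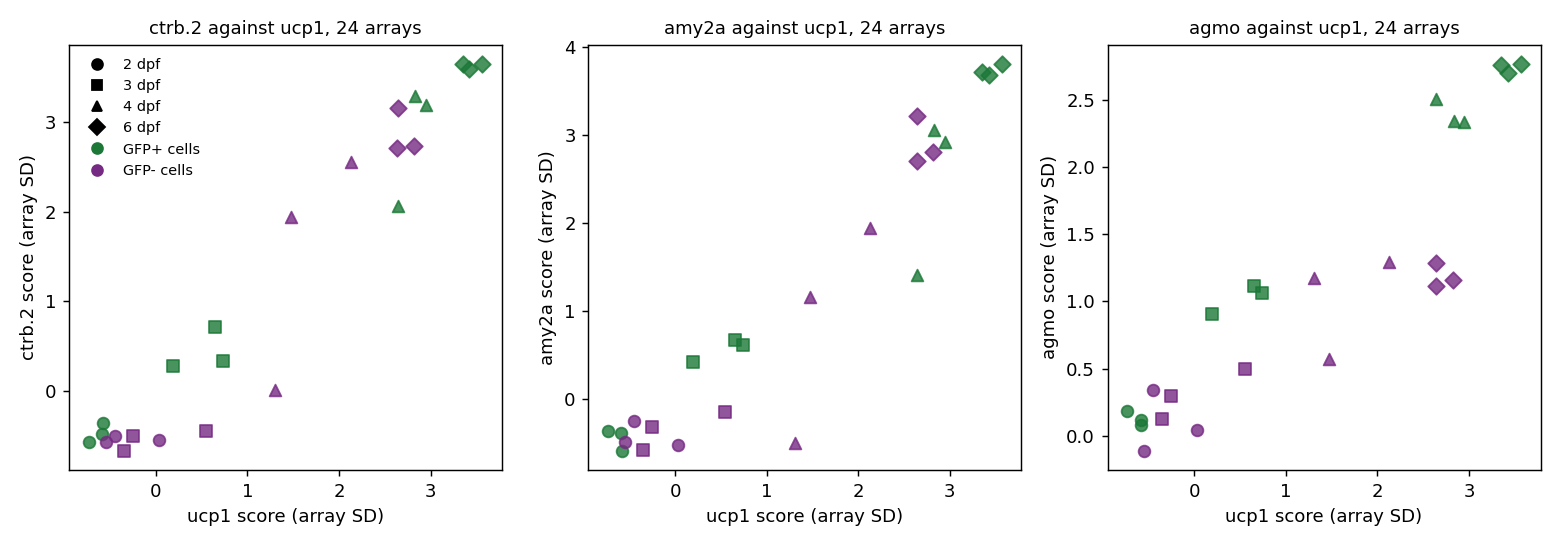
Scores of ctrb.2, amy2a and agmo (vertical axes, array SD) against the ucp1 score of the same array (horizontal axes, array SD), with 24 arrays per panel, colour for the gate and symbol for the age. The GFP- array of 4 dpf with a ucp1 score of 1.31 has ctrb.2 at 0.01 and amy2a at -0.50, among the values of younger arrays.

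Within a group, ucp1 and the enzyme genes ctrb.2 and amy2a did not always move together. GFP- 3 dpf replicate 1 had ucp1 at 0.55, against -0.35 and -0.25 in the other arrays of its group. There ctrb.2 at -0.45 and amy2a at -0.14 were also the highest of the group, but below the array median. At 4 dpf ucp1 and these enzyme genes parted in 2 arrays. GFP- 4 dpf replicate 2 had ucp1 at 1.31, while ctrb.2 was at 0.01 and amy2a at -0.50. On the other GFP- arrays of 4 dpf ctrb.2 stood at 1.94 and 2.56 and amy2a at 1.17 and 1.95. On that same array agmo was at 1.17 and deptor at 1.598, inside the range of the other 2 arrays of the group.

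GFP+ 4 dpf replicate 2 showed a smaller case of the same kind. Its ucp1 score of 2.64 was 0.19 under the next lowest of its group, whereas ctrb.2 was 2.06 against 3.29 and 3.19, and amy2a was 1.42 against 3.06 and 2.93. There agmo was 2.51, against 2.34 and 2.33. Both arrays also had the highest enterocyte median of their group, given with the other markers. Over all probe sets both had the lowest mean correlation with their group, given with the technical measures.

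Genes alike in their pattern with ucp1 differed between the gates to unlike degrees at 6 dpf. GFP+ minus GFP- was 0.77 for ctrb.2 and 0.83 for amy2a, close to the 0.75 of ucp1. It was 1.56 for agmo, 1.26 for itih3b.1 and 0.81 for deptor. At 2 dpf the differences were 0.07 for ctrb.2, -0.03 for amy2a, 0.04 for agmo, -0.06 for itih3b.1 and 0.37 for deptor.

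Markers of exocrine pancreas and liver rose beside ucp1 in both gates. The marker lists are sets of textbook genes per cell type, and each list is summed up by the median score of its measured genes on an array. In GFP- cells the median of the 14 measured exocrine pancreas genes was between -0.44 and -0.27 at 2 dpf and between 3.14 and 3.49 at 6 dpf. All 14 were called higher at 6 than at 2 dpf in GFP- cells, with a median rise of 3.35. The median of the 23 measured hepatocyte genes was between -0.33 and -0.14 at 2 dpf and between 1.13 and 1.91 at 6 dpf, and 19 of the 23 were called higher. Of 16 enterocyte genes, 12 were called higher in GFP- cells. Of 11 endocrine pancreas genes, 5 were called higher there (ins, gcga, sst1.1, neurod1 and scg3) and 1 lower (pax6b). Lists of other tissues changed in GFP- cells as well. Of 12 photoreceptor and lens genes, 10 were called higher and 0 lower, with a median rise of 2.85. Neuron genes were called higher in 5 and lower in 4 of 13, and muscle genes higher in 0 and lower in 9 of 15. The shares of all probe sets were 8.77% higher and 9.64% lower. Signal of genes that define the organs marked by GFP was thus present and rising in the GFP- arrays, and its part in the GFP- rise of ucp1 was not tested.

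At 4 dpf the GFP- arrays spread in ucp1 and in the markers. Replicates 1, 2 and 3 had ucp1 at 1.47, 1.31 and 2.13. Their hepatocyte medians were 0.87, 0.82 and 2.49, and their exocrine medians 2.26, 0.50 and 3.03. Replicate 3 was highest in all 3 measures. Enterocyte medians were 0.20, 1.76 and 1.18, so that replicate 2, the lowest in ucp1, was the highest in that list.

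In GFP+ cells the lists kept different timetables. The exocrine median was between -0.19 and 0.00 at 2 dpf, between 2.10 and 2.52 at 3 dpf, between 2.63 and 3.57 at 4 dpf and between 3.91 and 4.01 at 6 dpf. The hepatocyte median was already between 1.33 and 1.90 at 2 dpf, when ucp1 was below the array median, and reached 3.07 to 3.15 at 6 dpf. Members of both lists departed from these medians. At 2 dpf the GFP+ mean was -0.62 for ahsg1 and 0.04 for tdo2a of the hepatocyte list. It was 2.53 for prss1 of the exocrine list. Between 2 and 6 dpf 14 of 14 exocrine and 20 of 23 hepatocyte genes were called higher in GFP+ cells, against 7 of 16 enterocyte genes, with 1 lower. The shares of all probe sets were 9.17% higher and 13% lower. The enterocyte median had a mean of 2.26 ± 0.72 at 4 dpf and 1.72 ± 0.35 at 6 dpf. Of the 11 endocrine pancreas genes 0 were called higher and 5 lower in GFP+ cells, and the mean of their median score was 0.79 ± 0.12 at 2 dpf and 0.06 ± 0.30 at 6 dpf. At 3 dpf the GFP+ mean was 0.53 for ucp1 and 2.30 for the exocrine median. Members of that list were spread at this age, with GFP+ means of -0.38 for pla2g1b, 0.57 for amy2a, 2.12 for ctrl and 2.24 for ela2. Heights of different probe sets are not compared as levels, so ucp1 is not placed behind the list as a whole.

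**Figure D4:**
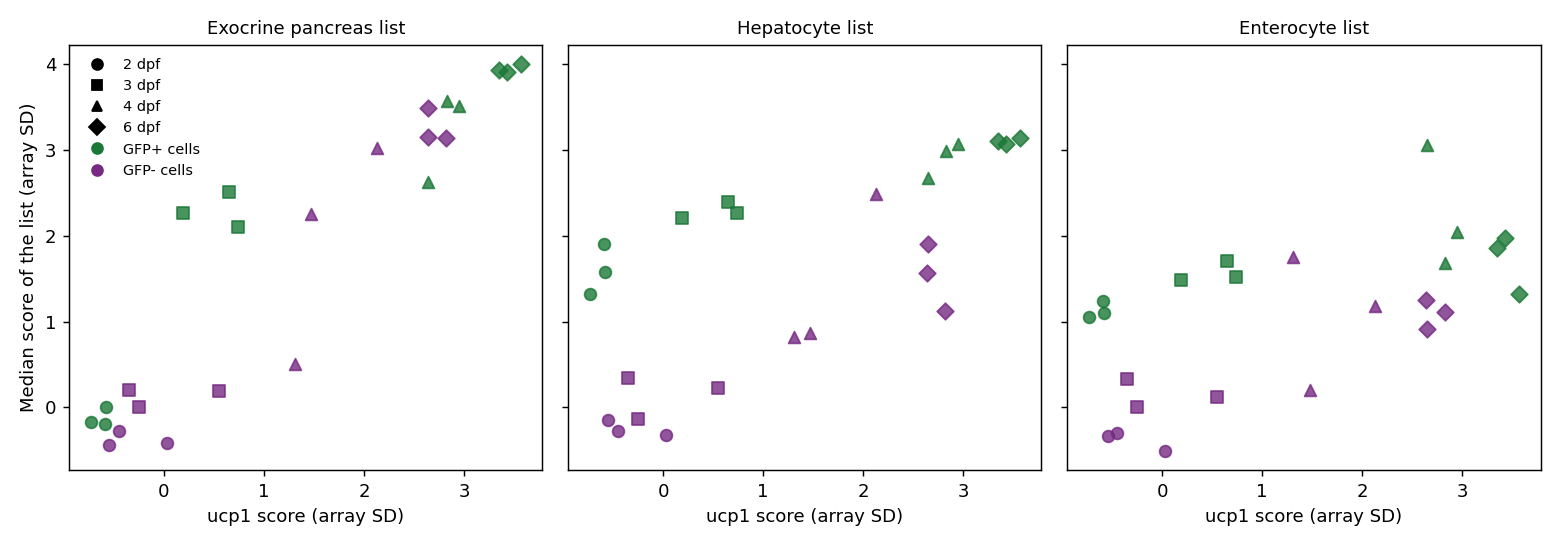
Median score of the exocrine pancreas, hepatocyte and enterocyte marker lists (vertical axis, array SD) against the ucp1 score of the same array (horizontal axis, array SD), for 24 arrays, with colour for the gate and symbol for the age. The GFP+ arrays of 2 dpf have hepatocyte medians between 1.33 and 1.90 with ucp1 between -0.73 and -0.58.

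At 6 dpf, 23.2% of all probe sets were called higher and 14.9% lower in GFP+ than in GFP- cells. Of the 23 hepatocyte genes 21 were called higher there and 1 lower, with a median difference of 1.86. Of the 14 exocrine genes 3 were called higher, with a median of 0.63 and a range from 0.28 to 1.40. That range holds the ucp1 difference of 0.75, but so do those of other lists. Among them are the hepatocyte range, from -2.75 to 2.31, and the enterocyte range, from -0.40 to 1.21. Of the other lists, neuron, epidermis, and photoreceptor and lens genes were called lower in GFP+ cells in 13 of 13, 14 of 16 and 10 of 12, with 1 of the last list called higher. Muscle genes were called lower in 4 of 15 and endocrine pancreas genes in 4 of 11. Those 4 endocrine genes were neurod1 (-2.33), scg3 (-1.75), isl1a (-1.66) and gcga (-1.06). The insulin gene ins differed by 0.71 and sst1.1 by 0.22, and neither was called. The count is therefore not read as fewer islet cells in the GFP+ gate. The kidney and ionocyte list had 1 higher and 3 lower of 9, leukocytes 2 higher and 2 lower of 12, erythrocytes 1 higher and 0 lower of 10, and vascular endothelium no call among 5. Of the adipocyte list only 2 genes of 14 were measured, cidec and cebpa, too few to say whether fat cells were present.

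One list joined genes of the heat-producing (thermogenic) programme of mammalian fat with genes of lipolysis, the breakdown of stored fat, and general regulators. A call of one of its members is thus not a reading of heat production. That list held 23 measured genes of 52, of which 4 were called higher and 2 lower in GFP+ cells between 2 and 6 dpf, where 9.17% of all probe sets were called higher and 13% lower. With array weights 7 were called higher. Its median change was 0.01, against 0.05 for all probe sets. The lists were drawn up with earlier results of these data known, so their counts are set beside the shares of all probe sets and not tested.

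The called members were a deiodinase, a lipid droplet protein and transcription factors. In GFP+ cells dio1, the deiodinase that activates thyroid hormone in liver, rose by 1.87 ± 0.21 (limma adjusted p = 2.22e-06). The lipid droplet gene cidec rose by 1.61 ± 0.26 (limma adjusted p = 0.000105), cebpd by 1.01 ± 0.16 and the liver X receptor gene nr1h3 by 0.89 ± 0.20. The mitochondrial transcription factor gene tfam fell by 0.74 and nrf1, a regulator of respiratory genes, fell by 0.49. The other 17 measured members were not called in GFP+ cells. Among them dio2, another deiodinase gene, changed by -0.01 ± 0.09 (limma adjusted p = 0.942). The changes were -0.28 ± 0.16 for ebf2, -0.06 ± 0.10 for lipea and 0.01 ± 0.09 for mgll. Each of these had GFP+ means below the array median at 2 and 6 dpf. In GFP- cells ebf2 fell by 1.33 (limma adjusted p = 6.82e-06).

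Few regulators of ucp1 in mammals could be followed. Of those considered, ppargc1b and cebpa were measured by a probe set with 1 symbol. The others considered, ppargc1a, pparaa, pparab and pparg, were not. The coactivator gene ppargc1b differed by 0.19 ± 0.13 in GFP+ cells (limma adjusted p = 0.356). The transcription factor gene cebpa was higher in GFP+ cells at 2 dpf by 1.38 ± 0.20 (limma adjusted p = 5.49e-05) and at 6 dpf by 0.89 ± 0.20 (limma adjusted p = 0.00139), and its change with age in GFP+ cells was -0.25 ± 0.20 (limma adjusted p = 0.409). The thyroid hormone receptor gene thrb differed at 6 dpf by -1.69 ± 0.24, GFP+ minus GFP- (limma adjusted p = 1.38e-05).

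Most mitochondrial carriers move metabolites across the inner membrane. Of 27 carriers measured besides ucp1, 10 were called higher and 2 lower in GFP+ cells between 2 and 6 dpf, with a median change of 0.21. That was 37% and 7.41%, against 9.17% and 13% of all probe sets. In GFP- cells 4 were called higher (14.8%, against 8.77% of all probe sets) and 0 lower (against 9.64%), with a median of 0.09 against -0.03 for all probe sets. The largest called rise in GFP+ cells was that of slc25a48, at 1.79 ± 0.25 (limma adjusted p = 2.81e-05).

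Next came slc25a43, which rose by 1.105 ± 0.16 in GFP+ cells and by 0.63 ± 0.16 in GFP- cells, and the acylcarnitine carrier gene slc25a20, which rose by 1.06 ± 0.19 in GFP+ cells. The phosphate carrier gene slc25a3a changed more in GFP- cells, with a rise of 2.01 ± 0.18 (limma adjusted p = 2.02e-07) and a GFP+ change of 0.38 ± 0.18 that was not called (limma adjusted p = 0.15). The aspartate and glutamate carrier gene slc25a12 fell by 0.69 in GFP+ cells.

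The respiratory chain and ATP synthase, whose proton gradient uncoupling proteins lower, were higher in GFP+ cells at 6 dpf in 77 of 87 measured genes and lower in 1. Of all probe sets, 23.2% were called higher and 14.9% lower there. The median difference of the 87 genes was 0.56, against 0.11 for all probe sets. Between 2 and 6 dpf in GFP+ cells, 27 of the 87 were called higher and 4 lower, but the first count was 17 after quantile normalization, 44 with array weights, 15 with only the groups compared and 17 without GFP+ 2 dpf replicate 2. Of all probe sets, 9.17% were called higher and 13% lower in GFP+ cells between these ages. The complex I subunit gene ndufa6 rose by 1.13 ± 0.20 and ndufa3 by 1.097 ± 0.13. The cytochrome oxidase subunit gene cox4i2 fell by 1.11 in GFP+ cells and rose by 1.34 ± 0.27 in GFP- cells. In GFP- cells, where ucp1 rose by 3.02, 3 of the 87 were called higher and 2 lower. The shares of all probe sets were 8.77% higher and 9.64% lower. The counts of the 87 ran from 2 to 7 and from 0 to 10 over 13 alternatives (7 and 7 with only the groups compared, 6 and 10 with array weights).

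Genes of mitochondrial fatty acid oxidation were higher in GFP+ cells already at 2 dpf, when ucp1 scored below the array median in GFP+ cells. At 2 dpf, a comparison in which 9.66% of all probe sets were called higher and 7.36% lower in GFP+ cells, 19 of 24 measured genes were called higher and 0 lower. At 6 dpf 22 were called higher (91.7%, against 23.2% of all probe sets), with a median difference of 0.94. Between 2 and 6 dpf in GFP+ cells 12 were called higher (50%, against 9.17% of all probe sets) and 1 lower (4.17%, against 13%). Among them acat1, of ketone body and acetyl-CoA metabolism, rose by 1.09 ± 0.14, and acadm, the medium-chain acyl-CoA dehydrogenase gene, by 0.81 ± 0.14. The fatty acid ligase gene acsl1a fell by 0.62.

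Of 28 measured genes of the citrate cycle and pyruvate oxidation, 11 were called higher and 3 lower in GFP+ cells between 2 and 6 dpf. That was 39.3% and 10.7%, against 9.17% and 13% of all probe sets. The aminotransferase gene got2a rose by 1.71 ± 0.18 in GFP+ cells and by 1.497 ± 0.18 in GFP- cells, and citrate synthase, cs, fell by 0.38 in GFP+ cells. Of 26 measured genes that remove reactive oxygen, 15 were called higher (57.7%) and 1 lower (3.85%) in GFP+ cells between these ages. Their median change was 0.54. The quinone reductase gene nqo1 rose by 1.93 ± 0.19 (limma adjusted p = 5.15e-07) and the peroxiredoxin gene prdx1 by 1.39 ± 0.10 (limma adjusted p = 1.78e-08). In GFP- cells 5 of the 26 were called higher (19.2%, against 8.77% of all probe sets). That count ran from 3 without GFP- 2 dpf replicate 3 or either of GFP- 6 dpf replicates 1 and 3 to 9 with array weights.

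**Figure D5:**
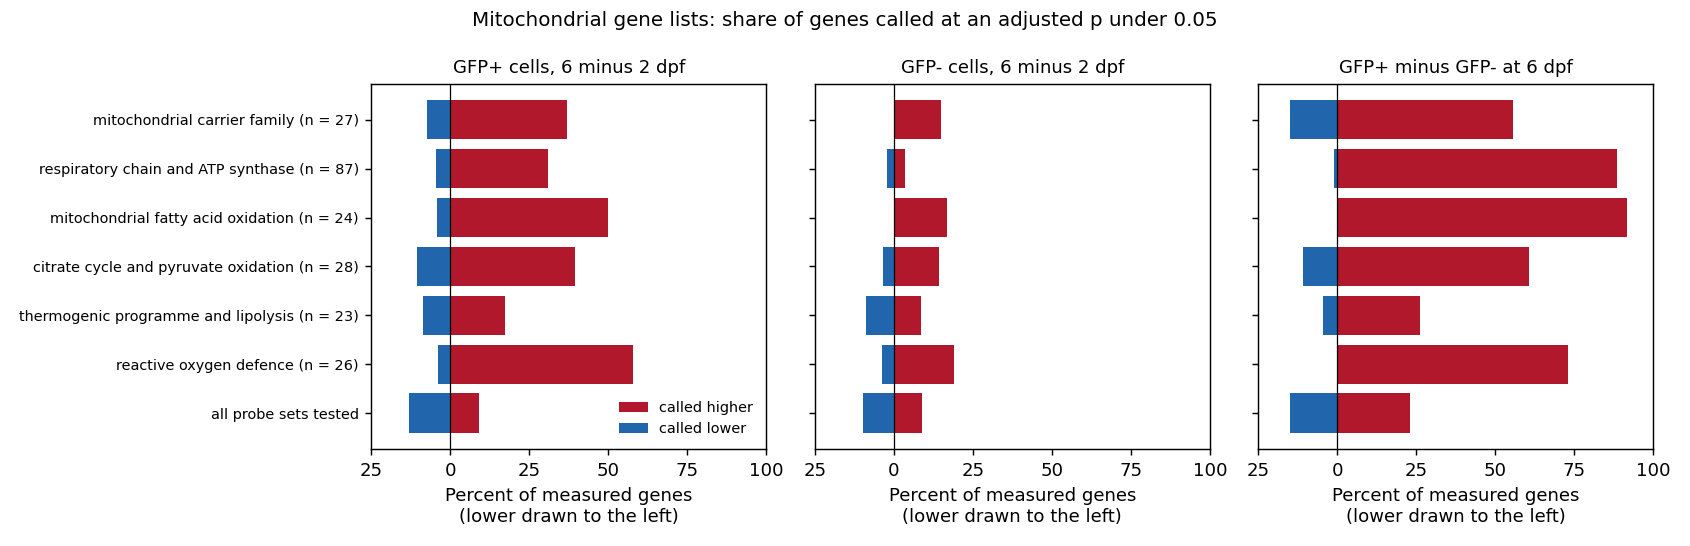
Share of measured genes (horizontal axis, percent) called higher, drawn to the right, or lower, drawn to the left, in 3 comparisons. Bars are for 6 lists of mitochondrial and related genes and for all probe sets tested. Numbers in brackets are measured genes, and ucp1 is in none of the lists. Of 87 respiratory chain genes, 77 are called higher in GFP+ cells at 6 dpf, against 23.2% of all probe sets. With age in GFP- cells 3 of the 87 are called higher, against 8.77% of all probe sets.

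The nearest measured genes on either side of ucp1 lay 1 to 13 annotated genes away in the RefSeq annotation of zebrafish assembly GRCz12tu. They changed by far less or fell. As ucp1 was selected for a rise that ranked 11th of 15502 in GFP+ cells, almost any genes would change by less. Between 2 and 6 dpf 9.17% of all probe sets were called higher and 13% lower in GFP+ cells. In GFP- cells the shares were 8.77% and 9.64%. The nearest one on one side, elmod2, which also neighbours UCP1 in mammals, rose by 0.28 ± 0.09 in GFP+ cells (limma adjusted p = 0.0269) and by 0.38 ± 0.09 in GFP- cells (limma adjusted p = 0.00432). On the same side zgc:66455, b3gnt2a and cct4 were not called in either gate. The mean scores of zgc:66455 and b3gnt2a over all arrays were low, at -0.49 and -0.58. On the other side znf330, the nearest measured gene at 5 steps and with a mean score of -0.62, was not called in either gate. Further out the chromatin remodeller gene smarca5 fell by 1.32 in GFP+ cells and by 1.18 in GFP- cells, patl1 fell by 0.48 in both and inpp4b rose by 0.61 ± 0.14 in GFP- cells.

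Across the arrays, 2 technical measures were set beside ucp1. Over all probe sets, arrays within a group had correlations from 0.893 to 0.983, and GFP+ 6 dpf replicate 3 had the lowest mean correlation with its group, 0.897. The GFP+ rise of ucp1 was 4.02 without that array. In the arrays of 4 dpf where ucp1 parted from ctrb.2 and amy2a, the mean correlation was the lowest of the group. It was 0.925 for GFP- 4 dpf replicate 2 and 0.93 for GFP+ 4 dpf replicate 2. The 3' minus 5' score of the GAPDH control probe sets, a sign of RNA integrity and amplification, was between 0.40 and 0.76 in GFP+ cells at 2 dpf and between -0.13 and 0.27 at 6 dpf. In GFP- cells it was between 0.24 and 0.27 at 2 dpf and between 0.24 and 0.85 at 6 dpf, so that it went down in one gate and not in the other while ucp1 went up in both. At 4 dpf the GAPDH score was 0.69 in GFP+ replicate 2, against 0.05 and 0.03 in the other GFP+ arrays. In GFP- replicate 2 it was 0.41, against 0.45 and 0.20. The part of both measures in these differences, and in the arrays that parted, was not tested.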

How the data were processed

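Total RNA of 24 sorted samples was measured on an Affymetrix zebrafish array. The authors deposited 1 score per probe set and array; the submitters' processing notes name RMA, with scaling step and log base not given in the sources used here. Every array has a median of 0 and an SD of 1 over 15617 probe sets, so no fold changes are given, although the plan had assumed log-scale values. Arrays give no read depth, so precision is set by their number. After removal of 115 control probe sets, 15502 were tested with no filter on signal; 10795 carried 1 symbol in the array annotation, 135 several and 4572 none, and 10711 symbols were matched by gene identifier, which changed 1.

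limma 3.58.1 in R 4.3.3 was fitted to 8 group means (16 residual and 3.59 prior degrees of freedom), with two-sided tests and Benjamini-Hochberg adjustment within each comparison at a threshold of 0.05. By exact permutation 3 arrays against 3 cannot reach such a p, so single calls rest on the model. On simulated data with independent noise and changes added to a single group, the method recovered the largest of the added changes. That simulation held no outlying arrays and no correlation between arrays, so it does not cover those cases. A gene is its brightest probe set. The gene, the lists and the tests were chosen with earlier results of these data known. Named from each list were at most 5 genes each way with the largest called differences, and always the uncoupling genes and ucp1 regulators; the pattern rule took the 12 closest genes over all arrays and 6 over GFP+ arrays, and the neighbours were the 4 nearest measured on each side. Examples in the text are mostly drawn from those. The genes that rose by 3 array SD in both gates, and dio2, ebf2, lipea and mgll, were named after their values were seen.

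Per the series' design text, GFP+ and GFP- samples come in pairs by replicate. Residuals of the 12 same-numbered pairs correlated between -0.079 and 0.312, with 4 over 0.1, and other numbers averaged -0.039. The model has no term for the pair. Alternatives were quantile normalization, a replicate block, array weights, a trended robust prior, only the groups compared, a filter on dim probe sets, averaged probe sets per gene and leaving out each array.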

Additional observations from a re-analysis of the deposited data

Results flagged for a closer look

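From the lists of mitochondrial and related genes the naming rule took 61. Of these, 22 changed differently between 2 and 6 dpf in the gates, by limma's test of the difference itself. That test took GFP+ change minus GFP- change, called at an adjusted p under 0.05 over all probe sets. Most of the 61 were named for large called changes in GFP+ cells or large called gaps between the gates at 6 dpf. Those values also enter this test, so its calls were favoured by the choice of genes. The share of all probe sets called in it is not given here, so the count is a description. The limma adjusted p ran from 1.36e-05 (prdx1) to 0.0482 (eci2), and values are in array SD. For ucp1 the same quantity was 1.06, with no test.

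The largest difference among the carriers was -1.63 for slc25a3a, which rose in GFP- cells. The value was -0.57 for slc25a12, 1.19 for slc25a20, 1.18 for slc25a48, 1.09 for slc25a55b and 0.80 for slc25a3b. In the respiratory chain the differences were 0.84 for ndufa3, 0.70 for uqcrc2a, 0.69 for atp5f1e and 0.64 for cox6a1, and -2.46 for cox4i2, which fell in GFP+ cells and rose in GFP- cells. Fuel oxidation genes gave 1.13 for glud1a, 0.82 for fh, 0.65 for dlst and 0.60 for eci2. In the list of thermogenic and lipolysis genes the differences were 1.54 for dio1 and 1.42 for cidec. For reactive oxygen defence they were 1.43 for nqo1, 1.40 for gsr, 1.36 for prdx1, 1.17 for gpx1a and 0.66 for cat. Groups of 3 arrays were too small to look for single outlying arrays.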

How the results depend on the processing

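The rise of ucp1 in GFP- cells between 2 and 6 dpf was called under all 12 alternatives run (2.91 to 3.20, limma adjusted p from 6.653e-10 to 8.116e-05), and the change between 3 and 2 dpf under none (0.02 to 0.48). The rise between 4 and 3 dpf was called under 11 of 12 (1.41 to 1.94); with only the groups compared it was 1.65, adjusted p 0.113. The rise between 6 and 4 dpf was called under 5 of 12; it was 0.93 with array weights (adjusted p 0.0568), 1.06 with only the groups compared (adjusted p 0.364), and 0.90 to 1.31 leaving out 1 array. The GFP+ rise was 3.91 after quantile normalization and 4.02 to 4.13 leaving out 1 array. Array weights moved the called probe sets from 3434 to 5783 in GFP+ cells and from 2854 to 4663 in GFP- cells between 2 and 6 dpf, and from 2638 to 3960 between gates at 2 dpf. A filter on dim probe sets moved those at 6 dpf from 5915 to 3889. In GFP+ cells more probe sets were called lower than higher (2012 and 1422), but without GFP+ 6 dpf replicate 3 the counts were 1740 lower and 1891 higher, and with array weights 2659 and 3124. Of the 12 genes most like ucp1, 2 were shared with the GFP+ arrays alone and, an alternative chosen after seeing the data, 5 with the GFP- arrays alone. With the replicate block the counts were 3436, 2862, 2657 and 5947 in the same order of comparisons, the ucp1 rise in GFP- cells stayed at 3.02, and the block changed no call of ucp1. Of 312 recomputed list counts called higher, 283 stayed within 1.5 times and 29 did not; of 312 called lower, mostly counts of a few genes, 260 did. These list counts were added after seeing the data. The cause of these changes was not tested.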
